A study of Mus musculus with 24 samples.

Results

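Prnd, Hmcn2, Mapt, Ighm, Ngfr and Clca3a1 are 6 of the 15667 genes listed for uninjected hearts and of the 15327 listed for injected hearts of the same study. They were chosen by their measured differences between hearts that lack Xinβ and wild-type hearts, as the genes with the largest falls in the knockout. Of these, 5 were lower in knockout hearts in both experiments, but only Hmcn2 and Ighm were among the 5 largest called falls of both, and Ngfr was far from them. Clca3a1 goes against the description: it was higher in knockout hearts in both experiments, and fell below wild-type hearts only in knockout hearts given active YAP. The same values cannot test the choice, so every difference between knockout and wild-type hearts without active YAP is given here as a description, with its standard error (SE) and without a p-value.

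The hearts came from mice at postnatal day 7.5, and polyadenylated RNA was sequenced in 24 libraries that fall into 6 groups of 4. Knockout mice (KO) carry a germline disruption of Xirp2, the gene of Xinβ, in which part of the gene is replaced by a lacZ and neomycin resistance cassette, and their wild-type (WT) littermates served as controls. One experiment compared uninjected KO and WT hearts. In the other, pups of both genotypes had received at postnatal day 1, under the skin, an adeno-associated virus (AAV9) in which the cardiac troponin T promoter drives either GFP or an active human YAP that lacks a serine phosphorylated by the Hippo kinases, which gives the groups WT/GFP, KO/GFP, WT/YAP and KO/YAP. The promoter limits the transgene to cardiomyocytes, whereas the deletion is in every cell of the animal. The tissue is labelled as heart apex, and all 8 cardiomyocyte markers examined, among them Myh6 and Tnnt2, were listed in both experiments, with a summed level between 53304 and 89865 CPM, the deposited measure of read abundance relative to library size, in the 24 libraries. In whole tissue, fewer cells of a type and less RNA per cell cannot be told apart.

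Xinβ is an actin-binding protein of the intercalated disc, the junction that couples neighbouring cardiomyocytes. In the Hippo pathway, a kinase cascade holds the coactivator YAP out of the nucleus, and YAP freed from it acts with TEAD factors on genes of growth and the cell cycle. The 6 genes are not known as members of one pathway. Prnd encodes doppel, a prion-like protein on a lipid anchor at the cell surface. Ngfr encodes p75, a receptor shared by the neurotrophins. Hmcn2 encodes hemicentin-2, a very large protein of the extracellular matrix. Mapt encodes tau, which binds microtubules. Ighm encodes the constant part of the IgM heavy chain, made by B cells. Clca3a1 belongs to a family of regulators of calcium-activated chloride currents and is known as a marker of lymphatic vessels.

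The number of reads assigned to genes ran from 20490875 to 31154155 per library in the uninjected experiment and from 15015038 to 19444404 in the injected one, so that 1 read was worth between 0.0329 and 0.0656 CPM. Xirp2 was between 0 and 0.972 CPM in the 12 KO libraries and between 56.0 and 168 CPM in the 12 WT libraries, so each library fits its labelled genotype. Uninjected KO replicate 4 stood apart from the other KO hearts in a list of 10 proliferation genes: its mean log2 level was 0.19 above the mean of the WT hearts, where the other 3 KO hearts were at -1.65 to -2.45. The mean log2 level of 4 Y-linked genes was also lower in it (1.86) than in the other 7 uninjected hearts (4.52 to 5.43). In injected hearts it was low in WT/GFP replicate 4 (0.27), KO/GFP replicate 2 (0.49), WT/YAP replicate 3 (2.63) and KO/YAP replicates 3 and 4 (0.78 and 0.15), and 4.80 to 5.54 in the other 11. The sex of the mice is not among the labels used here. The paper states that males and females were mixed equally within each RNA-seq group. The Y-linked levels do not show such a balance in uninjected hearts, where all 4 WT hearts were between 4.94 and 5.31. The 2 experiments were scaled separately and read in different formats, single-end and paired-end, so levels from them are set side by side and never tested against each other. Differences are log2 fold changes of CPM + 1 from limma, a scale on which the change of a scarce gene comes out too small. A gene is called at a Benjamini-Hochberg adjusted p-value under 0.05 over all genes tested. A gene was tested where it exceeded 1 CPM in 4 or more uninjected libraries (of 8) or in 8 or more injected libraries (of 16), and all 6 genes were. Ighm was under 1 CPM in all KO hearts without active YAP and passed that filter only through the other groups, so a difference from those KO hearts was built into its passing in both experiments.

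Sequence before the start of the gene was looked up for the 6 genes, since YAP reaches DNA through TEAD factors. RefSeq (GRCm38.p6) gave promoter windows for 4 of the 6 genes, Hmcn2, Prnd, Clca3a1 and Ngfr. Mapt and Ighm have no entry in the table used. The 250 bases before the RefSeq start are shown, 5′ to 3′ on the strand of the gene, for Hmcn2 (chr2:31314082-31314331, plus strand), for the upstream start of Prnd (chr2:131950611-131950860, plus strand) and for Clca3a1 (chr3:144760978-144761227, minus strand). Prnd has a second RefSeq start downstream, and the 30 bases before it are shown (chr2:131951007-131951036, plus strand). Capitals mark the only match to the TEAD motif GGAATG, on either strand, in the 250-base windows of these 4 genes.
Hmcn2: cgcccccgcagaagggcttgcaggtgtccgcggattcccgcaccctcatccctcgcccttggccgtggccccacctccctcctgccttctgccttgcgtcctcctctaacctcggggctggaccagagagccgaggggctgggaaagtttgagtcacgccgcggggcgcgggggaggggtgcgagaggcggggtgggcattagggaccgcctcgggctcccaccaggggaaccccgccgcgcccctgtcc
Prnd: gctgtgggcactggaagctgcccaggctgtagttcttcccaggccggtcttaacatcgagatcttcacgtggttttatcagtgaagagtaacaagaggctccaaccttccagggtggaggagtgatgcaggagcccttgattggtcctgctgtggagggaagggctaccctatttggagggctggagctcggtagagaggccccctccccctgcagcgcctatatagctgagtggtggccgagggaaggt
Prnd, downstream start: gagcgcccgctcattCATTCCtagctgcct
Clca3a1: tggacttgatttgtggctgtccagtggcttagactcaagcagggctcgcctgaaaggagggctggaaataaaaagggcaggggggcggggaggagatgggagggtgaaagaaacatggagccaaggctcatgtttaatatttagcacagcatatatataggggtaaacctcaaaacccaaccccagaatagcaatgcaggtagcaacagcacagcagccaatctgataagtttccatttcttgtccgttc
The match lies 15 bases before the downstream start of Prnd, on the minus strand. Of all 32851 RefSeq promoter windows of the same length, 12.6% hold GGAATG. On either strand, CCAAT was found once before the upstream start of Prnd and once before Clca3a1, and 33.8% of all windows hold it. Neither TATAAA, which 12.4% of windows hold, nor the CArG box, which 1.47% hold, was found in any window of the 4 genes. The Hmcn2 window has a GC content of 72.4% and the Ngfr window one of 70.4%, where the median over all windows is 52.4%. The Clca3a1 window has 48.8%. These are matches of letters and no measure of binding.

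In uninjected hearts, Prnd, Hmcn2, Mapt and Ighm held ranks 2 to 5 among the genes called lower in KO hearts, after Xirp2 itself, and Akap5 followed them at rank 6. Their log2 fold changes ran from -4.11 to -2.91, and that of Akap5, just outside, was -2.88. The ranks are those with a pseudocount of 1 CPM. With 0.1 CPM, Ighm was at -4.96, a larger fall than Hmcn2 had under any alternative (-3.99 at the lowest). Ngfr was rank 81, with -1.29. Of the 15598 genes tested, 540 (3.46%) were called lower and 504 (3.23%) higher. The 5 genes are among the former and Clca3a1 among the latter. The same values may have chosen the genes, so these calls support nothing. In 1315 genes (8.43%) every KO library was lower than every WT library, and all 5 genes were of that kind. Without KO replicate 4 the number of calls was 2031 in place of 1044, and the log2 fold changes of the 6 genes were -4.60 for Prnd, -3.23 for Hmcn2, -3.24 for Mapt, -2.89 for Ighm, -1.34 for Ngfr and 1.48 for Clca3a1. Without WT replicate 1 the number of calls was 316. Of the 14597 genes tested in injected hearts, 1054 (7.22%) were called lower and 939 (6.43%) higher in KO/GFP than in WT/GFP hearts. The same 5 genes were called lower there and Clca3a1 higher, again as a description only. The order differed, with Hmcn2 at rank 2 of the genes called lower, Ighm at 5, Prnd at 12, Mapt at 116 and Ngfr at 462. Their KO/GFP libraries were all lower than the WT/GFP libraries, as in 1160 genes (7.95%).

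**Figure D1:**
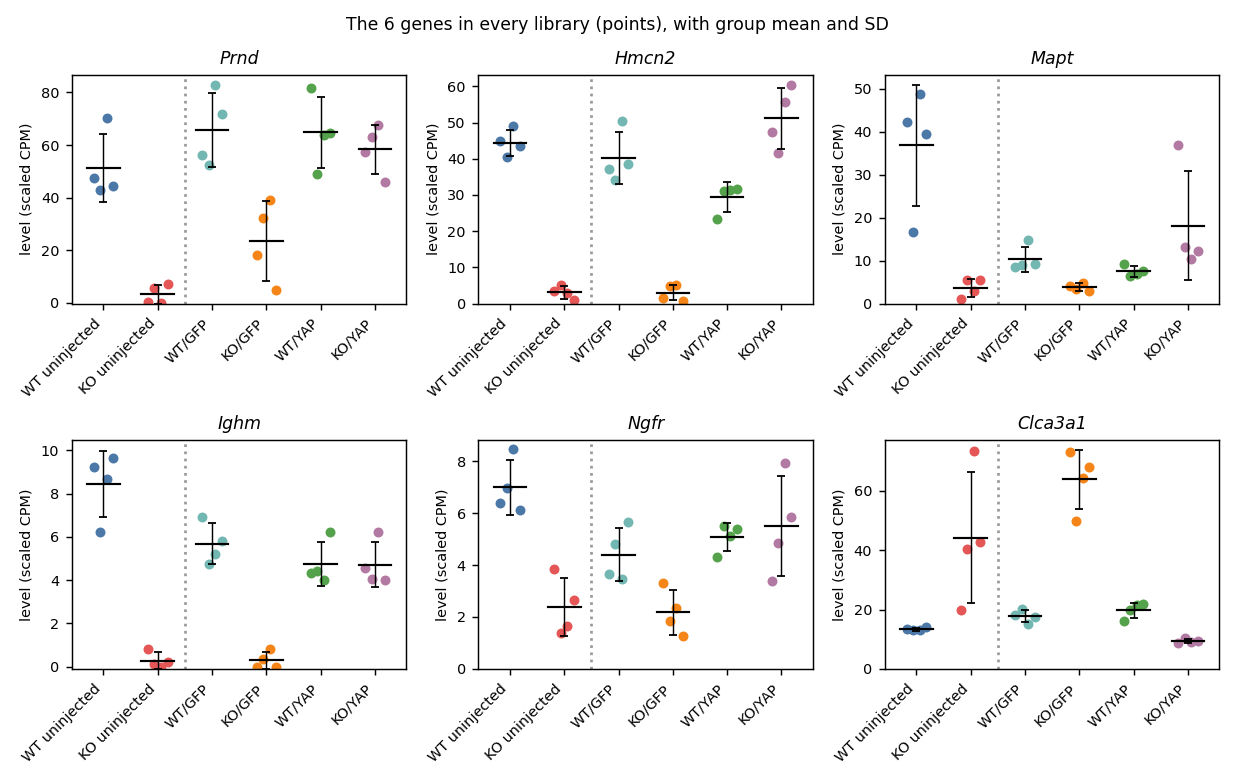
Level of each of the 6 genes in scaled CPM (vertical axes) in the 4 libraries of each group (points), with the group mean and SD (bars). The dotted line separates the 2 experiments, which were scaled separately. In 5 panels the KO libraries without active YAP lie below all WT libraries of their experiment and the KO/YAP libraries lie above all KO/GFP libraries, and in the Clca3a1 panel the order is the opposite.

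Prnd (ENSMUSG00000027338) lies on chromosome 2 from 131950861 to 131956130 of GRCm38, on the plus strand, with 4 annotated transcripts. Uninjected KO replicates 1 to 4 had 0.389, 5.40, 0.050 and 7.26 CPM, the lowest of these being 1 read. WT replicates 1 to 4 had 47.6, 42.8, 70.4 and 44.2 CPM. The groups were far apart, and the KO hearts differed widely among themselves, from 1 read to 164 reads. The mean was 3.28 ± 3.61 CPM in KO and 51.3 ± 12.9 CPM in WT hearts (SD, n = 4), 15.7-fold higher in WT, and the log2 fold change was -4.11 (SE 0.63), or -5.26 with a pseudocount of 0.1 CPM in place of 1 CPM. In injected hearts, Prnd was at 18.1, 32.0, 38.9 and 4.85 CPM in KO/GFP and at 56.3, 52.5, 82.7 and 71.8 CPM in WT/GFP replicates 1 to 4. All 4 KO/GFP hearts were again below the lowest WT/GFP heart, and KO/GFP replicate 4 was far below the other 3. The log2 fold change was -1.75 (SE 0.41).

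With active YAP, Prnd was at 57.3, 63.1, 67.5 and 45.9 CPM in KO/YAP hearts, all above the highest KO/GFP heart, and at 81.9, 49.0, 63.8 and 64.4 CPM in WT/YAP hearts. The difference from KO/GFP was 1.59 (SE 0.41), and without KO/GFP replicate 4, the lowest heart of the injected experiment, it was 1.01. In order of their means, WT/GFP (65.8 ± 14.01 CPM), WT/YAP (64.8 ± 13.4 CPM) and KO/YAP (58.5 ± 9.35 CPM) overlapped, and KO/GFP (23.5 ± 15.1 CPM) stood below them. Prnd sits among the prion genes. Prnp, the prion protein gene, starts 40.9 kb before it and was at 86.3 ± 13.8 CPM in uninjected KO hearts and 89.3 ± 5.14 CPM in their WT littermates (log2 difference -0.06, limma adjusted p = 0.81). In KO/GFP against WT/GFP hearts Prnp differed by -0.03 (adjusted p = 0.88). Sprn, the other gene of the family, is not among the listed genes. A further gene model on the same strand, Prn, shares 3122 of the 3211 exonic bases of Prnd and is not listed, so that reads of Prn and Prnd cannot be told apart.

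The uneven level of Prnd among KO hearts was set beside that of the proliferation genes. In uninjected KO replicates 1 to 4 the mean log2 level of the 10 proliferation genes was -2.06, -1.65, -2.45 and 0.19 relative to the WT mean. The order of these 4 hearts by proliferation genes is their order by Prnd. In KO/GFP replicates 1 to 4 it was -1.60, -0.34, -0.81 and -2.41, and replicate 4, the lowest, also had the least Prnd, while the highest in proliferation genes, replicate 2, was second in Prnd to replicate 3. In uninjected KO replicate 4 the proliferation genes were at the WT level and Prnd was at 7.26 CPM, where the lowest WT heart had 42.8 CPM. The genes whose pattern over the 24 libraries was most like that of Prnd, each experiment centred on its own mean, were Ttk, a mitotic kinase (r = 0.94), Rasgrp3, an activator of Ras in endothelium (r = 0.94), and Mycn, a growth-promoting transcription factor (r = 0.93). These correlations, taken over 13734 genes, rest largely on the differences between the groups. The part of the proliferation genes in the Prnd result was not tested.

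**Figure D2:**
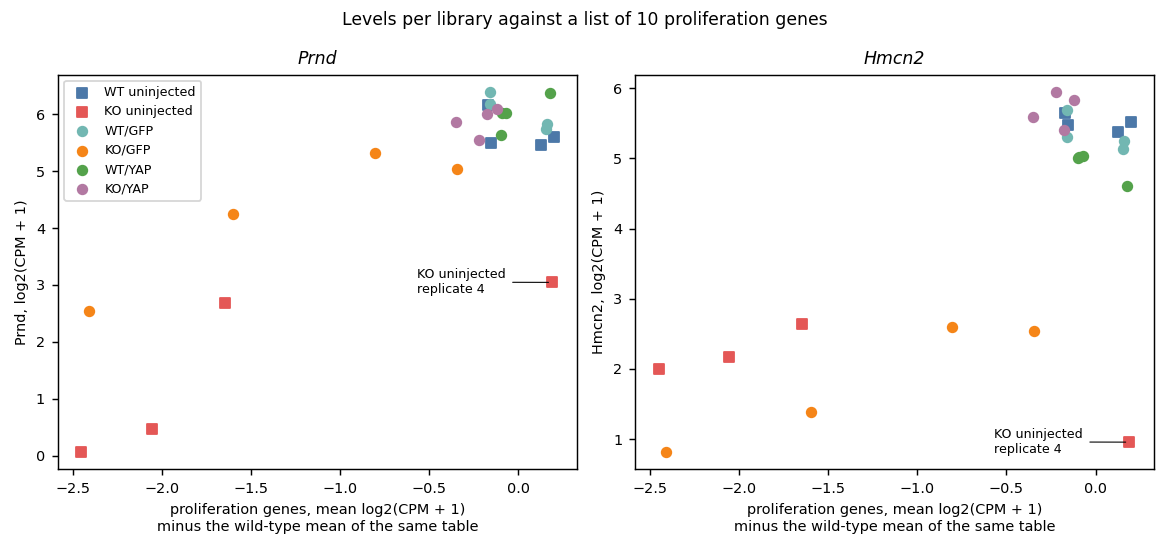
Level of Prnd (left) and Hmcn2 (right) as log2(CPM + 1) against the mean log2 level of 10 proliferation genes relative to the WT hearts of the same experiment, WT uninjected or WT/GFP (horizontal axes), 1 point per library. Uninjected KO replicate 4 has proliferation genes 0.19 above the WT mean and 7.26 CPM of Prnd and 0.943 CPM of Hmcn2.

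Hmcn2 (ENSMUSG00000055632; chromosome 2, 31314415 to 31460738, plus strand) differed by nearly the same factor in both experiments. Uninjected KO replicates 1 to 4 had 3.50, 5.24, 2.997 and 0.943 CPM, against 44.8, 40.5, 49.1 and 43.5 CPM in WT replicates 1 to 4. In KO/GFP hearts it was at 1.61, 4.84, 5.03 and 0.771 CPM, and in WT/GFP hearts at 37.1, 34.2, 50.5 and 38.5 CPM. WT hearts had 14.04-fold more than KO hearts without injection and 13.1-fold more with the GFP vector. The log2 fold changes were -3.56 (SE 0.31) and -3.51 (SE 0.30). Replicate 4 of the uninjected KO hearts, whose proliferation genes were at the WT level, had the least Hmcn2 of its group.

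In KO/YAP hearts Hmcn2 was at 47.3, 41.5, 55.6 and 60.3 CPM, each above all WT/YAP hearts, which were at 23.3, 31.2, 31.4 and 31.8 CPM. Its difference between KO/YAP and KO/GFP hearts, 3.85 (SE 0.30), was the largest rise of the 14597 genes tested. Of those genes, 1146 (7.85%) were called higher and 1010 (6.92%) lower in KO/YAP hearts, and in 1316 (9.02%) all KO/YAP libraries were above all KO/GFP libraries. The order of the means was KO/YAP (51.2 ± 8.40 CPM), WT/GFP (40.1 ± 7.16 CPM), WT/YAP (29.4 ± 4.09 CPM) and KO/GFP (3.06 ± 2.19 CPM). KO/YAP and WT/GFP overlapped, and the other neighbours in this order did not. The most similar genes over the 24 libraries were Cdh23, a cadherin of the hair cell tip link (r = 0.97), Tmem255b (r = 0.96) and Pcsk6, a protease that processes precursors of secreted growth factors (r = 0.96).

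Other genes of the matrix around hemicentin are set beside Hmcn2. Since Hmcn2 was chosen for its large fall, smaller changes in them are no result. Hmcn1, the paralog of Hmcn2, was at 115 ± 58.2 CPM in uninjected KO hearts and 132 ± 7.35 CPM in their WT littermates (log2 difference -0.35, limma adjusted p = 0.60), and differed by 0.11 in KO/GFP against WT/GFP hearts (adjusted p = 0.70). Of 19 tested genes of hemicentins, fibulins and basement membranes besides Hmcn2, none was called in uninjected KO hearts by limma, with a median log2 fold change of -0.29. Of 20 in injected hearts, 3 fell in KO/GFP hearts and none rose, with a median of -0.12, and 4 rose in KO/YAP against KO/GFP hearts. Those that fell were Efemp1, a fibulin (-0.85), which was under 1 CPM in all 4 KO/GFP hearts and passed the filter on low values only through the other groups, Frem2, a protein of the embryonic basement membrane (-0.81, adjusted p = 0.025), and Lama4, a laminin chain of vessels (-0.36, adjusted p = 0.021). The median over all genes tested was between -0.01 and 0.01 in each of these comparisons.

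Mapt (ENSMUSG00000018411; chromosome 11, 104231390 to 104332090, plus strand, 12 transcripts) was at 1.12, 5.44, 2.85 and 5.47 CPM in uninjected KO hearts. In uninjected WT hearts it was at 42.4, 16.7, 48.9 and 39.4 CPM. The groups did not overlap, although WT replicate 2 was well under the other WT hearts, and the log2 fold change was -3.04 (SE 0.42). With the GFP vector the gap was narrower: KO/GFP hearts were at 4.16, 3.40, 4.91 and 2.86 CPM and WT/GFP hearts at 8.43, 9.04, 14.7 and 9.26 CPM, with a log2 fold change of -1.22 (SE 0.29). KO hearts of both experiments had similar values on their own scales, 3.72 ± 2.12 and 3.83 ± 0.895 CPM, and it was the WT level that differed between the experiments, 36.8 ± 14.01 against 10.4 ± 2.93 CPM. Because of the separate scaling and the different reads, this difference has no test.

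In KO/YAP hearts Mapt was at 37.0, 13.1, 10.4 and 12.2 CPM, above all KO/GFP hearts, and in WT/YAP hearts at 9.21, 6.39, 6.83 and 7.48 CPM. KO/YAP replicate 1 stood far above the other 3 hearts of its group. By their means the order was KO/YAP (18.2 ± 12.6 CPM), WT/GFP, WT/YAP (7.48 ± 1.24 CPM) and KO/GFP. KO/YAP overlapped WT/GFP, WT/GFP overlapped WT/YAP, and KO/GFP was below all others. The difference between KO/YAP and KO/GFP was 1.82 (SE 0.29). The most similar genes were Itpripl2 (r = 0.89), Kdr, the VEGF receptor of endothelium (r = 0.87), and Rnf219 (r = 0.87).

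Tau is best known from axons. Of 15 neuron markers, 4 were listed in each experiment, Th among those not listed, and none of the 4 was called in any comparison by limma. Their summed level was 23.7 to 31.2 CPM in uninjected WT and 23.9 to 33.3 CPM in KO hearts, and 28.8 to 36.3 CPM in WT/GFP and 21.8 to 58.9 CPM in KO/GFP hearts. Their part in the fall of Mapt was not tested. Among the 17 tested microtubule-associated proteins and tubulins other than Mapt, 2 fell in uninjected KO hearts, Map9 (-1.21, limma adjusted p = 0.0057), which binds the mitotic spindle, and Map2 (-1.06, adjusted p = 0.043), a dendritic relative of tau. In injected hearts 5 of 18 fell and 1, Map7, rose in KO/GFP against WT/GFP (0.86, adjusted p = 0.0020). The falls were led by the tubulins Tuba1a (-1.11, adjusted p = 0.0039), Tubb2b (-1.10, adjusted p = 0.0042) and Tubb2a (-1.08, adjusted p = 0.0055), with Stmn1, which destabilises microtubules (-0.96, adjusted p = 0.012). Map2 did not pass there (-0.25, adjusted p = 0.74), and Map4, the widely expressed relative of tau, passed in neither experiment (-0.31, adjusted p = 0.64, and -0.09, adjusted p = 0.82).

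Ighm (ENSMUSG00000076617; chromosome 12, 113418558 to 113422730, minus strand) was nearly absent from KO hearts without active YAP. Uninjected KO replicates 1 to 4 had 17, 3, 0 and 4 reads, which is 0.826, 0.099, 0 and 0.189 CPM. The WT replicates had 255, 179, 189 and 234 reads, or 9.23, 6.21, 8.69 and 9.64 CPM. KO/GFP hearts were at 0, 0.327, 0.819 and 0 CPM and WT/GFP hearts at 6.93, 4.74, 5.22 and 5.81 CPM. KO hearts thus had a few reads or none in each library. The log2 fold changes, -2.91 (SE 0.21) and -2.41 (SE 0.20), depend on the pseudocount of 1 CPM, and with a pseudocount of 0.1 CPM they were -4.96 and -4.51.

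In KO/YAP hearts Ighm was back at 4.57, 4.03, 6.23 and 4.00 CPM, next to 4.31, 4.40, 4.02 and 6.23 CPM in WT/YAP hearts. WT/GFP (5.68 ± 0.945 CPM), WT/YAP (4.74 ± 1.01 CPM) and KO/YAP (4.71 ± 1.05 CPM) overlapped in their order, and KO/GFP (0.286 ± 0.387 CPM) was below them all. The log2 difference between KO/YAP and KO/GFP was 2.18 (SE 0.20), or 4.24 with the smaller pseudocount. Other B cell genes were scarce. Of 20 B cell markers besides Ighm, 5 were listed and tested in uninjected hearts, and 3 of them were called lower in KO hearts. Of these, Igkc, the kappa light chain (1.53 to 3.08 CPM in WT and 0 to 0.146 CPM in KO hearts), and Cd79b, a subunit of the B cell receptor (1.11 to 1.75 and 0 to 0.340 CPM), passed the filter through the WT libraries alone, as Ighm did, so their calls are no support. The third was Blk, a kinase of B cells (-1.62, limma adjusted p = 0.028), which exceeded 1 CPM in all 4 WT libraries and in 1 KO library. The WT libraries alone met the filter here too, so the call of Blk has the same limit. Cd37 (-0.40, adjusted p = 0.086) and Ebf1 (-0.24, adjusted p = 0.53) did not pass. In injected hearts 7 were listed and 3 tested, of which Blk fell in KO/GFP hearts (-1.09, adjusted p = 0.0083) and rose in KO/YAP against KO/GFP hearts (1.39, adjusted p = 0.0017). Whether Blk passed the filter there only through the other groups is not given here. Cd37 (-0.63, adjusted p = 0.097) and Ebf1 (-0.12, adjusted p = 0.63) did not pass in KO/GFP hearts.

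Below the filter, Igkc was at 0 in all 4 KO/GFP hearts and between 0.614 and 2.15 CPM in WT/GFP and 0.564 and 2.34 CPM in KO/YAP hearts. Cd79a, the partner of Cd79b, was between 0 and 0.131 CPM in KO/GFP, 0.657 and 1.03 CPM in WT/GFP and 0.564 and 1.09 CPM in KO/YAP hearts. The summed B cell markers were between 31.1 and 36.8 CPM in uninjected WT and 16.6 and 27.6 CPM in KO hearts, and between 39.6 and 45.5, 26.8 and 38.1, and 35.7 and 49.9 CPM in WT/GFP, KO/GFP and KO/YAP hearts. Ebf1, which cells other than B cells also express, is part of that sum. None of the 5 T cell markers was listed. All 6 macrophage markers fell in KO/GFP hearts and all 6 rose in KO/YAP against KO/GFP hearts, with medians of -1.33 and 1.18. In uninjected hearts 5 of the 6 fell. The part of blood cell numbers in the Ighm result was not tested. Over the 24 libraries, Ighm was most like Cdh23 (r = 0.97), Akr1c14, a steroid reductase (r = 0.96), and C1qtnf9, a secreted relative of adiponectin (r = 0.96).

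Ngfr (ENSMUSG00000000120; chromosome 11, 95568818 to 95587735, minus strand) showed the smallest of the falls. It was at 3.84, 1.38, 1.65 and 2.64 CPM in uninjected KO hearts and at 6.37, 6.98, 8.46 and 6.14 CPM in WT hearts, without overlap. KO/GFP hearts were at 3.29, 1.83, 2.34 and 1.27 CPM and WT/GFP hearts at 3.65, 4.80, 3.48 and 5.64 CPM, where the highest KO/GFP heart came close to the lowest WT/GFP heart. The log2 fold changes were -1.29 (SE 0.22) and -0.78 (SE 0.22). KO/YAP hearts were at 3.38, 4.85, 7.95 and 5.83 CPM and WT/YAP hearts at 4.31, 5.49, 5.10 and 5.38 CPM. The lowest KO/YAP heart was only just above the highest KO/GFP heart, and the difference was 1.02 (SE 0.22). KO/YAP (5.504 ± 1.92 CPM), WT/YAP (5.07 ± 0.533 CPM) and WT/GFP (4.39 ± 1.02 CPM) overlapped, and KO/GFP (2.18 ± 0.859 CPM) was below them.

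Of 15 tested neurotrophins, receptors and partners of p75, 1 fell in uninjected KO hearts: Ntrk3, the receptor of neurotrophin-3 (-1.01, limma adjusted p = 0.011). In KO/GFP against WT/GFP hearts 3 fell and none rose: Rtn4r, a co-receptor of p75 (-1.16, adjusted p = 0.0083), Ntrk3 (-1.14, adjusted p = 2.6e-04) and Ntrk2, the receptor of BDNF (-0.87). Ntrk2 was under 1 CPM in all 4 KO/GFP hearts and passed the filter on low values only through the other groups, so its call supports nothing. These 3 and Bdnf were the 4 that rose in KO/YAP against KO/GFP hearts. Medians over the 15 genes were -0.22, -0.27 and 0.19 in uninjected KO against WT, KO/GFP against WT/GFP and KO/YAP against KO/GFP hearts. Ngfr also marks Schwann cells. Of 15 markers of Schwann cells and glia, 7 were tested in each experiment, not all of them the same genes, and the median log2 fold change was -0.23 over the 7 of uninjected and -0.09 over the 7 of GFP-injected hearts. The 10 of them listed for injected hearts had a summed level of 106.8 to 124.5 CPM in KO/GFP and 71.7 to 92.3 CPM in WT/GFP hearts. Their part in the difference of Ngfr was not tested. Erbb3, a receptor of the Schwann lineage, fell in uninjected KO hearts (-0.55, limma adjusted p = 0.040) and did not pass in KO/GFP hearts (-0.09, adjusted p = 0.75). Ncam1, an adhesion molecule that is not specific to glia, rose in KO hearts of both experiments (0.88, adjusted p = 0.0079, and 0.90, adjusted p = 1.2e-04). Sox10, which defines the Schwann lineage, is not listed for uninjected hearts and was at 0.533 ± 0.554 CPM in WT/GFP hearts. The genes most like Ngfr were Nos2, the inducible nitric oxide synthase (r = 0.91), Ets2, a transcription factor (r = 0.89), and Cdh23 (r = 0.89).

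Clca3a1 (ENSMUSG00000056025; chromosome 3, 144729677 to 144760977, minus strand) was the exception. It was at 19.9, 40.5, 73.4 and 42.6 CPM in uninjected KO and at 13.3, 12.9, 13.0 and 14.1 CPM in WT hearts. With GFP it was at 73.2, 49.8, 64.4 and 68.0 CPM in KO and at 18.2, 20.1, 15.2 and 17.3 CPM in WT hearts. The lowest KO heart was above the highest WT heart in both experiments, by log2 fold changes of 1.51 (SE 0.32) and 1.78 (SE 0.13), as in 1250 genes (8.01%) and 1068 genes (7.32%). In KO/YAP hearts it was at 8.68, 10.5, 8.92 and 9.38 CPM, below all WT/GFP hearts and below the WT/YAP hearts, which were at 16.2, 19.8, 21.4 and 21.7 CPM. All KO/YAP hearts were lower than all WT/GFP hearts in 338 genes (2.32%) and lower than all WT/YAP hearts in 689 (4.72%). The fall of Clca3a1 by 2.63 on the log2 scale (SE 0.13) from KO/GFP to KO/YAP was rank 7 of the genes called lower, and Slc10a6 (-2.64) and S100a8 (-2.57) stood on either side of it.

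By its means Clca3a1 ran in the order KO/GFP (63.8 ± 10.1 CPM), WT/YAP (19.8 ± 2.56 CPM), WT/GFP (17.7 ± 2.04 CPM) and KO/YAP (9.37 ± 0.814 CPM), where WT/YAP and WT/GFP overlapped. KO/YAP hearts were lower than WT/GFP hearts by 0.85 on the log2 scale (SE 0.13), and Clca3a1 was 1 of the 3 genes (0.0206%) called between these groups. That value may be what put the gene among the falls, so nothing is read from it. The neighbouring family member Clca3a2, whose start lies 66.9 kb from that of Clca3a1, rose in uninjected KO hearts (1.12, limma adjusted p = 0.049), from 2.89 ± 0.306 CPM in WT to 8.06 ± 3.81 CPM, and is not listed for the injected hearts. The 2 genes are close relatives, and how the counting divided reads between them is uncertain. An antisense gene model, Gm34866, overlaps 170 exonic bases of Clca3a1, and the libraries were strand-specific, but the strand setting of the counting is not given in the sources used here.

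Of 8 markers of lymphatic endothelium, 1 rose in uninjected KO hearts, Mmrn1, a vessel wall protein (1.06, limma adjusted p = 0.012), and 1 in KO/GFP hearts, Lyve1, a hyaluronan receptor (1.22, adjusted p = 0.015). None fell in either comparison. Prox1, which defines lymphatic identity but is also made in cardiomyocytes, differed by -0.13 (adjusted p = 0.72) and 0.23 (adjusted p = 0.51). The summed lymphatic markers overlapped between KO/GFP (150.9 to 203 CPM) and WT/GFP hearts (133 to 164 CPM). In the endocardium list, 3 of 5 genes rose in KO hearts of both experiments and 3 fell in KO/YAP against KO/GFP hearts, with medians of 1.19, 1.21 and -1.33. The most similar genes to Clca3a1 were Slco2a1, a prostaglandin transporter (r = 0.95), Ggt5, which converts leukotrienes (r = 0.92), and Mt2, a metallothionein (r = 0.91).

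**Figure D3:**
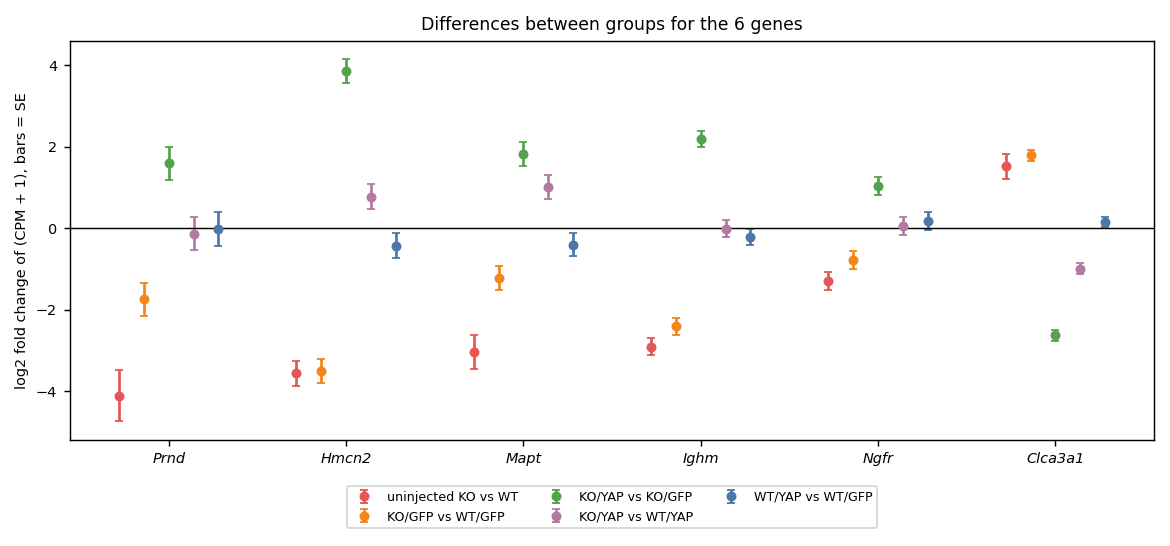
Log2 fold change of CPM + 1 from limma (vertical axis; bars, SE) for each of the 6 genes in 5 comparisons (colours). Prnd, Hmcn2, Mapt, Ighm and Ngfr lie below 0 in both KO against WT comparisons without active YAP and above 0 in KO/YAP against KO/GFP, and Clca3a1 has the opposite signs, 1.51, 1.78 and -2.63.

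The return under active YAP can be read as the share of the gap between KO/GFP and WT/GFP means, on the log2 scale, that KO/YAP hearts had closed. It was 90.9% for Prnd, 90.4% for Ighm, 109.8% for Hmcn2, 131% for Ngfr, 149% for Mapt and 147% for Clca3a1. These shares use the KO/GFP libraries on both sides and have no test. That of Mapt leans on KO/YAP replicate 1. Without it, KO/YAP hearts were 0.21 above WT/GFP hearts on the log2 scale, in place of 0.60. Single libraries show how far each return went. All 4 KO/YAP hearts lay beyond all KO/GFP hearts for each of the 6 genes. Over all genes tested, the KO/YAP hearts were all higher in 1316 genes (9.02%), as in 5 of the 6, and all lower in 1244 (8.52%), as in Clca3a1. Within the range of the WT/GFP hearts were 3 KO/YAP hearts for Prnd, 3 for Mapt, 2 for Hmcn2, 1 for Ighm, 1 for Ngfr and 0 for Clca3a1. For Ighm the other 3 hearts were below that range, and for Hmcn2 the other 2 were above it. For Ngfr 2 were above it and 1 was below.

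The difference between KO/YAP and WT/YAP means holds no library of the KO against WT comparisons taken to have chosen the 5 falling genes. The p-values of these genes are therefore given for it, although the KO/YAP libraries also gave the return. The spread behind the limma p-values was estimated over all injected groups, KO/GFP and WT/GFP among them. These p-values are thus not fully independent of the choice of the genes. Between KO/YAP and WT/YAP hearts 6 of 14597 genes (0.0411%) were called by limma, none of them among the 5. An unadjusted p-value under 0.05 was found for 2 of the 5, and for 1627 of all genes tested. Mapt was 2.43-fold higher in KO/YAP hearts by the group means, with a log2 difference of 1.00 (95% confidence interval 0.38 to 1.62, limma adjusted p = 0.28), and higher in 4 of 4 hearts. Without KO/YAP replicate 1 the difference was 0.61. Hmcn2 was higher by 0.78 (interval 0.14 to 1.41, adjusted p = 0.37), again in 4 of 4 hearts. In 658 genes (4.51%) every KO/YAP heart was above every WT/YAP heart, as in these 2. DESeq2 on recovered reads called 0.459% of genes and 1 of the 5, Mapt (adjusted p = 0.037), and edgeR called none of the 5.

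For the other 3 genes the difference between the genotypes under active YAP was small against its error. It was -0.14 for Prnd (interval -1.004 to 0.73, limma adjusted p = 0.92), -0.01 for Ighm (interval -0.43 to 0.41, adjusted p = 0.99) and 0.06 for Ngfr (interval -0.41 to 0.52, adjusted p = 0.94). The intervals leave room for a 2-fold difference in Prnd and for smaller ones in Ighm and Ngfr. Their width comes from the spread within all injected groups and not from KO/YAP and WT/YAP hearts alone. For Prnd, the KO/GFP hearts ran from 4.85 to 38.9 CPM, KO/YAP hearts from 45.9 to 67.5 CPM and WT/YAP hearts from 49.0 to 81.9 CPM. Clca3a1 was lower in KO/YAP than in WT/YAP hearts (log2 fold change -0.997, SE 0.13), which is a description because KO/YAP hearts may have chosen it.

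Active YAP was also compared with GFP in WT hearts. This comparison uses the WT/GFP libraries that entered the choice of the genes, so the values of the 6 genes are descriptions. The log2 differences were -0.43 for Hmcn2 (SE 0.30), -0.40 for Mapt (SE 0.29) and -0.22 for Ighm (SE 0.20). They were -0.02 for Prnd (SE 0.41), 0.19 for Ngfr (SE 0.22) and 0.15 for Clca3a1 (SE 0.13). Every WT/YAP heart had less Hmcn2 than every WT/GFP heart, as in 320 genes (2.19%). No gene of 14597 (0%) was called by limma, although 1011 had an unadjusted p-value under 0.05, and DESeq2 called 11 genes.

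Genes around the 6 were called in both directions. Hmcn2 and Prnd lie on the chromosome of Xirp2, at -36.1 Mb and 64.5 Mb from its start, and the other 4 are on other chromosomes. Within 1 Mb of the start of Hmcn2, 34 genes were tested in uninjected hearts, with a median log2 fold change of -0.0018 and 2 called lower. Within 1 Mb of Prnd, 25 were tested, with a median of -0.03, and 1 was called lower and 2 higher. Over all genes tested, 6.69% were called in either direction in uninjected and 13.7% in GFP-injected hearts. In KO/GFP against WT/GFP hearts, 4 of 33 around Hmcn2 and 5 of 25 around Prnd were called lower, and 2 higher around each. Around Ighm, 2 of 23 were lower and 3 higher, around Ngfr 2 of 28 lower and 2 higher, around Clca3a1 3 of 9 lower and none higher, and around Mapt none of 13 lower and 1 higher. In uninjected hearts, 1 of 24 around Ighm and 2 of 30 around Ngfr were lower, 2 of 13 around Mapt were higher, and around Clca3a1 1 of 11 was lower and 2 higher. The nearest listed genes to Hmcn2 were Ncs1 (-0.26, limma adjusted p = 0.34) and Ass1 (0.19, adjusted p = 0.61), and the nearest after Prnd was Rassf2, which fell (-0.80, adjusted p = 0.0099). Those next to Mapt were Arf2 (0.09, adjusted p = 0.63) and Kansl1 (-0.18, adjusted p = 0.77), next to Ngfr Spop (0.17, adjusted p = 0.28) and Phb (0.16, adjusted p = 0.61), and next to Ighm Gm9134 (0.02, adjusted p = 0.94) and Gm9517 (-0.31, adjusted p = 0.33). On the other side of Clca3a1 from Clca3a2 was Sh3glb1 (0.17, adjusted p = 0.26).

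**Figure D4:**
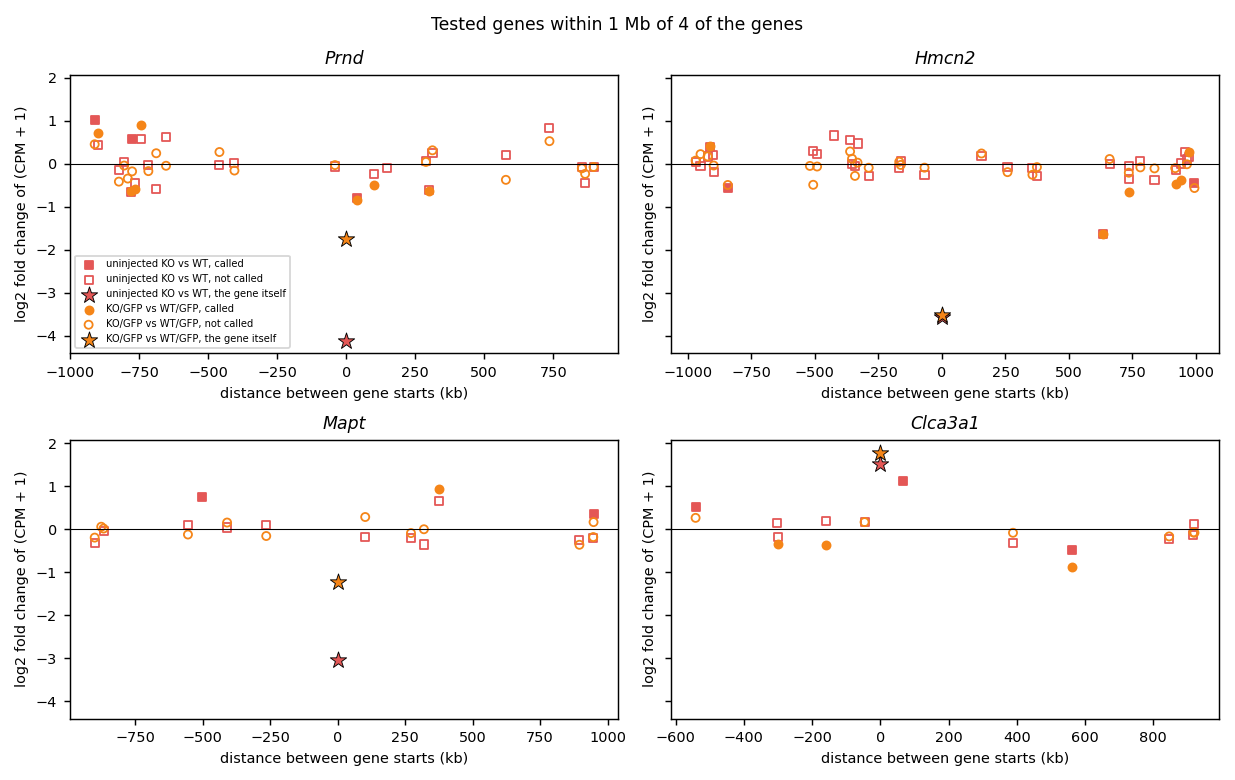
Log2 fold change of CPM + 1 in KO against WT hearts (vertical axes) of the tested genes within 1 Mb of Prnd, Hmcn2, Mapt and Clca3a1, by the distance between gene starts in kb (horizontal axes). Squares are uninjected and circles GFP-injected hearts, filled where called, and stars are the gene itself, which for Hmcn2 stands at -3.56 and -3.51 with its neighbours between -1.64 and 0.66.

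The genes also varied among themselves within a group. With every group centred on its own mean, so that only differences between hearts of one group remain, the correlation over the 24 libraries was 0.52 for Prnd with Mapt, 0.43 for Hmcn2 with Ighm and -0.49 for Ighm with Clca3a1. Mapt and Ngfr had -0.45. Before that centring, Hmcn2 and Ighm had a correlation of 0.95 and Hmcn2 and Clca3a1 one of -0.90. Over all pairs of the 6 genes the correlations ran from -0.49 to 0.52 with the groups centred and from -0.90 to 0.95 without. These correlations share libraries and scaling and are descriptions.

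Markers of several cell types differed between the groups, some in the direction of the 5 genes and others against it. Of 8 cardiomyocyte markers, 2 rose in KO hearts of both experiments and fell in KO/YAP against KO/GFP hearts. They were Tnnt2, the cardiac troponin T (0.60, limma adjusted p = 0.045, and 0.65, adjusted p = 0.0013, then -0.62, adjusted p = 0.0017), and Pln, the inhibitor of the calcium pump (1.38, adjusted p = 0.043, and 0.53, adjusted p = 0.0022, then -0.41, adjusted p = 0.0095). The summed cardiomyocyte markers were between 59989 and 67371 CPM in uninjected WT and between 66226 and 89865 CPM in KO hearts, and between 53304 and 67560 CPM in WT/GFP and 60342 and 71456 CPM in KO/GFP hearts. In the fibroblast list 5 of 9 genes fell in uninjected KO and 7 of 9 in KO/GFP hearts, and 7 rose in KO/YAP against KO/GFP hearts, with medians of -0.76, -0.76 and 0.89. The summed fibroblast markers were between 5348 and 5580 CPM in uninjected WT hearts and between 2624 and 3988 CPM in KO hearts. In the list of endothelial tip and vein genes 4 of 7 fell in uninjected KO and 3 of 7 in KO/GFP hearts, and 1 rose in KO/YAP against KO/GFP hearts. Of 12 blood endothelial genes, 1 fell and 1 rose in uninjected KO hearts and 3 fell in KO/GFP hearts, with medians of -0.14 and -0.21, and 3 rose and 1 fell in KO/YAP against KO/GFP hearts. Kdr fell in both (-0.60, limma adjusted p = 0.030, and -0.43, adjusted p = 0.0020), Tek (-0.38, adjusted p = 0.020) and Cdh5 (-0.31, adjusted p = 0.019) in KO/GFP hearts, and Eng rose in uninjected KO hearts (0.38, adjusted p = 0.021). Pecam1, on all endothelium, was at 289 ± 22.0 and 274 ± 6.68 CPM in uninjected KO and WT hearts, a log2 difference of 0.07 (limma adjusted p = 0.68). Among the epicardial markers 2 of 5 fell in uninjected KO and 1 of 8 in KO/GFP hearts, and among the mural cell markers 1 of 7 fell in each. In KO/YAP against KO/GFP hearts 2 of the epicardial markers rose and 1 fell, and 3 of the mural cell markers rose. Of the 10 proliferation genes, none was called in uninjected hearts by limma and 9 fell in KO/GFP hearts, with medians of -1.45 and -1.25, and 6 rose in KO/YAP against KO/GFP hearts. Of the red cell genes, none of 3 was called in uninjected hearts and 3 of 4 fell in KO/GFP hearts. None of the 4 was called by limma between KO/YAP and KO/GFP hearts, with a median of 0.02, and the median between KO/YAP and WT/GFP hearts was -1.09. The part of these cell types in the falls of the 5 genes was not tested.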

How the data were processed

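RNA from mouse hearts was sequenced in 24 libraries. Per the submitters' notes and the paper's methods, the authors used cutadapt 2.3 for trimming, HISAT2 2.1.0 for alignment to GRCm38, StringTie 1.3.4 for transcript assembly and quantification, and edgeR 3.26.1 for CPM. The deposited values are such a normalized signal, CPM on scaled library sizes, with column sums between 942566 and 1134439. All values of the uninjected libraries, and at least 99.9% of those of the injected ones, were whole multiples of 1 read within 0.05 of a step, which gave recovered reads. These are estimates from transcript coverage. Symbols follow Ensembl identifiers, of which 15655 of 15667 and 15314 of 15327 are in GENCODE M21, the source of positions.

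Groups follow the labels. The groups of a table were compared with limma 3.58.1 (mean-variance trend) on log2(CPM + 1), with Benjamini-Hochberg adjustment; all 16 injected libraries entered one fit. The study itself used Fisher's exact test. The labels give no batch and do not say whether replicates are separate litters, so p-values measure the spread between these samples. The 6 genes and the gene lists were chosen with earlier results of these data known. Named beside the 6 genes are Xirp2, the 3 genes of most similar pattern to each, up to 4 called genes per list with the largest change in KO/GFP against WT/GFP hearts, set relatives of each gene, their nearest listed neighbours and markers; Akap5, Slc10a6 and S100a8 were named after their values were seen. Some genes of the lists are not reported here by name. Alternatives were a pseudocount of 0.1, no filter, median-ratio scaling, limma without trend, edgeR 4.0.16 and DESeq2 1.42.0 on recovered reads, a replicate block, a Y-linked covariate and leaving out each library. Tests were tried on simulated data first. Software was R 4.3.3, Python 3.11.15 and, for figures, matplotlib 3.10.9.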

Additional observations from a re-analysis of the deposited data

Results flagged for a closer look

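Among the 36 sets of 4 values, 6 genes in 6 groups, Dixon's test singled out 1 heart in 3 sets, and chance alone would do so in about 1 of 20, or 1.8 sets. Mapt in KO/YAP replicate 1 was at 37.0 CPM, where the others were between 10.4 and 13.1 CPM. Mapt in WT/GFP replicate 3 was at 14.7 CPM, where the others were between 8.43 and 9.26 CPM. Hmcn2 in WT/YAP replicate 1 was at 23.3 CPM, where the others were between 31.2 and 31.8 CPM.

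For 3 genes the genotype difference had opposite signs in the hearts with the GFP vector and with active YAP, in every heart, and the difference between the 2 contrasts was not tested. Hmcn2 was lower by 3.51 on the log2 scale in KO/GFP than in WT/GFP hearts and higher by 0.78 in KO/YAP than in WT/YAP hearts. For Mapt the values were -1.22 and 1.00. For Clca3a1 they were 1.78 and -0.997.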

How the results depend on the processing

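In uninjected hearts 6.69% of the genes tested were called, against 12.5% by DESeq2, 2.47% with the replicate block, 12.9% with a covariate for Y-linked genes, and 2.05% (without WT replicate 1) to 13.1% (without KO replicate 4) with 1 library left out. For KO/GFP against WT/GFP hearts the share was 13.7%, and 8.66% (without KO/GFP replicate 1) to 18.9% (without KO/GFP replicate 2) with 1 library left out. For KO/YAP against KO/GFP hearts it was 14.8%, and 10.2% to 17.1%. DESeq2 called 0.164% in place of 0.0206% between KO/YAP and WT/GFP, 0.459% in place of 0.0411% between KO/YAP and WT/YAP, and 0.0754% in place of 0% between WT/YAP and WT/GFP hearts, and leaving out 1 library gave 0% to 0.0275%, 0% to 0.11% and 0% to 0.00689%. The causes were not tested.

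For each of the 6 genes the sign held under every alternative run in KO against WT hearts without active YAP and in KO/YAP against KO/GFP hearts. Ighm depended on the pseudocount, and 0.1 CPM gave -4.96, -4.51 and 4.24 in those comparisons. Prnd in uninjected hearts was then at -5.26. Without KO/GFP replicate 4, Prnd differed by -1.16 between KO/GFP and WT/GFP hearts, in place of -1.75. Mapt in KO/YAP against WT/YAP hearts was called by DESeq2 alone (1.28), and no replicate block changed a call there. Deviations of same-numbered libraries correlated at -0.19 to 0.14, and in no comparison were all pairs over 0.1, so the numbers were not taken as pairs. Leaving out a WT library took Ighm below the filter in uninjected hearts, and those 4 settings gave no value. Depth limits Ighm most, with 0 to 17 reads per KO library without active YAP.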
